A study of Mus musculus with 6 samples.

Results

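The genes described here are 10 that mark macrophages and the presentation of antigen on class II molecules of the major histocompatibility complex. They were taken by symbol from the 22036 genes of the deposited table, and all 10 were present and passed the filter on low counts: Cd74, H2-Aa, H2-Ab1, H2-Eb1, C1qa, C1qb, C1qc, Lyz2, Cd68 and Ctss. The samples were skeletal muscle of mice labelled as lacking PRR14 (genotype KO in every sample). Injection, 1 month earlier, was with an AAV, a viral vector for gene delivery. The vector carried either MEF2C-GFP, which is the muscle transcription factor MEF2C together with green fluorescent protein (3 libraries), or GFP alone (3 libraries). Neither a wild-type sample nor an uninjected one was analysed here, and the labels name no muscle, strain, age or promoter.

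Class II molecules are pairs of an alpha and a beta chain that display peptides from engulfed protein to CD4 T cells. Macrophages, dendritic cells and B cells make them in quantity. The invariant chain, encoded by Cd74, holds the peptide groove closed until lysosomal proteases, cathepsin S (Ctss) foremost, cut it away. Macrophages resident in tissue also secrete C1q, the complex of A, B and C chains that starts the classical complement pathway. They carry lysozyme (Lyz2) and the lysosomal glycoprotein CD68 as well. In muscle such cells clear damaged fibres and are normally few among the fibres.

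The class II genes share a promoter module made of an X box, bound by the RFX complex, and a Y box, bound by NF-Y. Stretches of the H2-Aa and H2-Eb1 promoters that hold both are shown because these genes moved together across the libraries, as described below. The letters searched were GCAACT for the core of the X box and CTGATTGG for the Y box, on both strands. The sequences are RefSeq promoter windows on GRCm38.p6, from 250 bases before to 50 after each gene's start, and capitals mark the 2 motifs.
H2-Aa: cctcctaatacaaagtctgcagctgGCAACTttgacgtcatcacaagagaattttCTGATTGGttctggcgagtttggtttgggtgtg
H2-Eb1: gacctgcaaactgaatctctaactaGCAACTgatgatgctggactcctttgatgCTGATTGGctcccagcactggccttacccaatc
The H2-Aa stretch is chr17:34287842-34287929 on the minus strand and that of H2-Eb1 is chr17:34305751-34305837 on the plus strand. The motifs lie 24 bases apart in H2-Aa and 23 bases apart in H2-Eb1. Of 32817 promoter windows, 10.9% hold the X-box letters, 4.09% the Y-box letters and 0.466% both. Windows of 7 of the 10 genes were searched, and neither motif was found in those of C1qb, C1qc, Lyz2, Cd68 and Ctss. No window of Cd74, H2-Ab1 or C1qa was searched, so nothing is said here of the motifs in these genes. Among other genes of the class II region, H2-Eb2 held both motifs, H2-Oa the Y-box letters alone, and H2-DMa, H2-DMb1, H2-DMb2 and H2-Ob neither. These are matches of letters and do not show binding. Only the exact letters were searched, so a window without them is not shown to lack either box.

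Several facts of the whole series bear on the values. The libraries held 3370833 to 3900617 listed reads each. Values are given as normalised CPM, read counts divided by the TMM-scaled library size and expressed per common total. Mef2c, the mouse gene for the factor that the vector carried, stood at 234, 196 and 371 CPM in replicates 1, 2 and 3 labelled MEF2C. In GFP replicates 1, 2 and 3 it stood at 223, 261 and 236 CPM. Only replicate 3 labelled MEF2C stood above the GFP libraries and replicate 2 stood below them all, so directions below are those of libraries labelled MEF2C. Whether reads of the insert are counted under Mef2c was not tested. Prr14, the gene labelled as knocked out, had reads in every library. It stood at 7.77, 5.73 and 4.84 CPM in replicates 1, 2 and 3 labelled MEF2C. In GFP replicates 1, 2 and 3 it stood at 3.26, 3.83 and 3.98 CPM (log2 fold change 0.72 ± 0.32, edgeR adjusted p = 0.856). Whether these reads come from a disrupted allele was not tested. Fibre genes dominated every library, with Acta1, the skeletal actin, at 32731 to 38798 CPM in those labelled MEF2C and 40495 to 54308 CPM in the GFP libraries, as the tissue label says. The 10 genes together took 0.0761% to 0.0845% of the reads in libraries labelled MEF2C and 0.0509% to 0.116% in GFP libraries. In such bulk tissue, fewer cells of a type and less RNA per cell cannot be told apart.

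None of the 10 genes passed the test of a difference between the libraries labelled MEF2C and the GFP libraries. With edgeR's quasi-likelihood test and Benjamini-Hochberg adjustment over 9229 genes, 0 of 10 had an adjusted p under 0.05, where 0.0758% of all tested genes did, 0.0325% higher and 0.0433% lower. At an unadjusted p under 0.05 it was again 0 of 10, where 5.71% of all tested genes passed, 3.36% higher and 2.35% lower. The same shares are the background of the counts given for other lists below. DESeq2 and limma-voom also called 0 of the 10, with 0 at an unadjusted p under 0.05. The ranges of the groups overlapped for all 10, while 11.1% of all tested genes had groups that did not overlap. By fitted log2 fold change, 6 of the 10 stood lower and 4 stood higher in libraries labelled MEF2C, with a median of -0.24 beside 0.01 over all tested genes. The summed level of the 10 genes was 757, 794 and 780.4 CPM in replicates 1, 2 and 3 labelled MEF2C, against 508, 929 and 1202 CPM in GFP replicates 1, 2 and 3. The libraries labelled MEF2C lay close together, inside the span of the GFP libraries. Lyz2 was highest in replicate 1 labelled MEF2C, at 357 CPM, and lowest in GFP replicate 1, at 168 CPM. Without Lyz2 the sums were 400.3, 536 and 553 CPM in replicates 1, 2 and 3 labelled MEF2C, against 341, 677 and 865 CPM in GFP replicates 1, 2 and 3. The libraries labelled MEF2C then lay less close together.

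**Figure D1:**
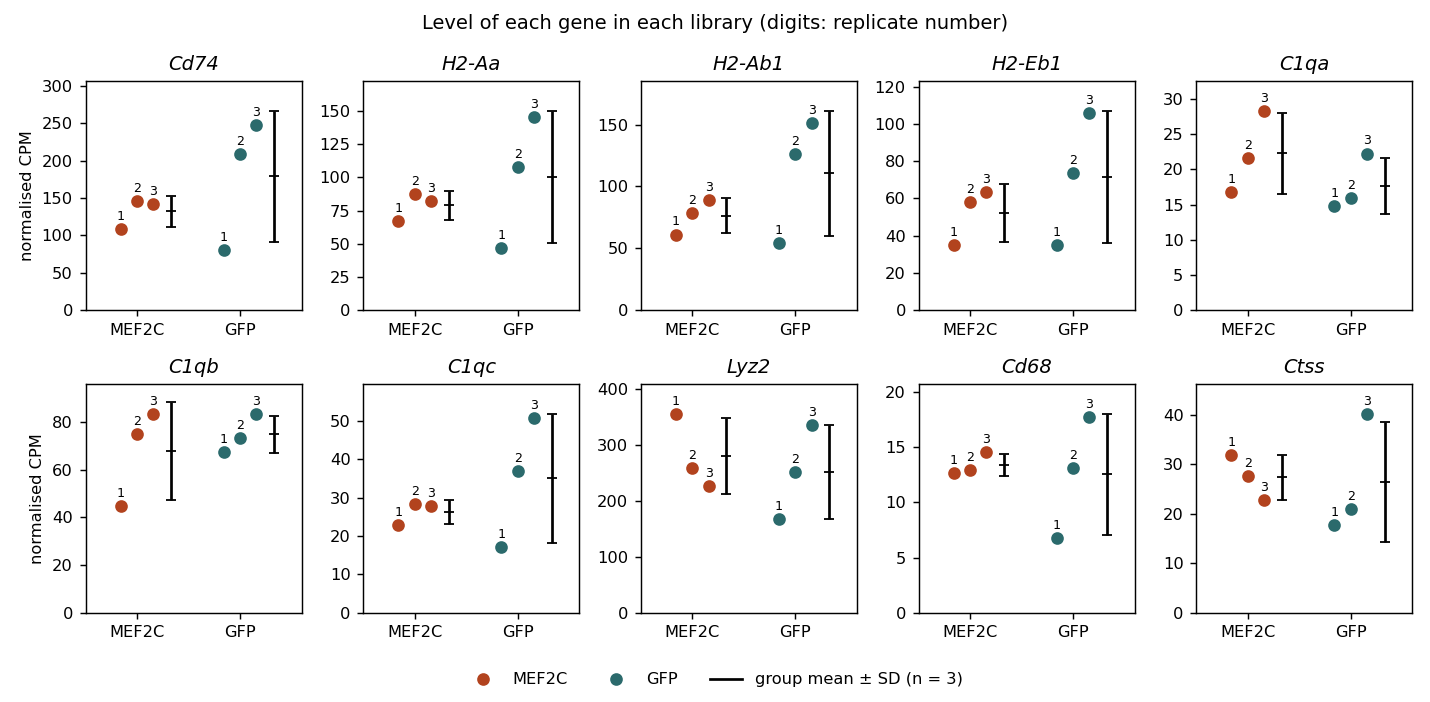
Normalised CPM (vertical axes, from 0) of each of the 10 genes in the 3 libraries labelled MEF2C and the 3 GFP libraries; digits give the replicate number and bars the group mean ± SD. For Cd74 the GFP libraries run between 80.6 and 248 CPM and enclose those labelled MEF2C, at 109 to 146 CPM.

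The invariant chain and the 3 class II chains had a wide spread among the GFP libraries. Cd74 is annotated on GRCm38 chromosome 18 from 60803848 to 60812652 (ENSMUSG00000024610, plus strand), and like the other 9 genes it codes for protein. It stood at 109, 146 and 142 CPM in replicates 1, 2 and 3 labelled MEF2C, against 80.6, 208 and 248 CPM in GFP replicates 1, 2 and 3. GFP replicate 1 was the lowest of the 6 libraries, the other GFP libraries were the highest pair, and the libraries labelled MEF2C lay between them. The means were 132 ± 20.2 CPM in libraries labelled MEF2C and 179 ± 87.5 CPM in GFP libraries (SD, n = 3 each). The fitted log2 fold change was -0.44 ± 0.44 (SE) with a 95% interval of -1.59 to 0.71 (edgeR adjusted p = 0.993). A level as low as 0.332 times or as high as 1.64 times that of the GFP libraries lies within that interval. Leaving out GFP replicate 1 changed the log2 fold change to -0.80 and leaving out GFP replicate 3 to -0.13.

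H2-Aa encodes the alpha chain of the mouse class II molecule I-A (ENSMUSG00000036594, chromosome 17, 34282744 to 34287823, minus strand). It stood at 66.8, 87.4 and 82.5 CPM in replicates 1, 2 and 3 labelled MEF2C, against 46.8, 108 and 146 CPM in GFP replicates 1, 2 and 3. The order of the libraries was that of Cd74, with GFP replicate 1 lowest and GFP replicate 3 highest. Its log2 fold change was -0.35 ± 0.42 with a 95% interval of -1.43 to 0.74 (edgeR adjusted p = 0.993). Without GFP replicate 3 it was 0.02.

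H2-Ab1 encodes the beta chain that pairs with H2-Aa and lies 13324 bases from it (ENSMUSG00000073421, chromosome 17, 34257689 to 34269419, plus strand). Its levels were 61.1, 78.7 and 89.1 CPM in replicates 1, 2 and 3 labelled MEF2C, against 54.2, 126 and 152 CPM in GFP replicates 1, 2 and 3. Again GFP replicate 1 was lowest and GFP replicates 2 and 3 were above every library labelled MEF2C. The log2 fold change of -0.54 ± 0.40 was the largest in size of the 10 genes, with a 95% interval of -1.55 to 0.48 (edgeR adjusted p = 0.976). H2-Eb1 encodes the beta chain of the other class II molecule, I-E (ENSMUSG00000060586, chromosome 17, 34305867 to 34316674, plus strand). A gene annotated on the opposite strand, Gm20513, overlaps it, and the use of strand in counting is not given in the sources used here. H2-Eb1 stood at 34.7, 58.3 and 63.4 CPM in replicates 1, 2 and 3 labelled MEF2C, against 35.0, 73.7 and 106 CPM in GFP replicates 1, 2 and 3. Here replicate 1 labelled MEF2C and GFP replicate 1 were level at the bottom. The log2 fold change was -0.46 ± 0.47 with a 95% interval of -1.66 to 0.74 (edgeR adjusted p = 0.993).

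The fits of these class II genes rested on single GFP libraries. Without GFP replicate 1, 5 of the 10 genes had an unadjusted p under 0.05, namely Cd74, H2-Aa, H2-Ab1, H2-Eb1 and C1qc, all lower in libraries labelled MEF2C. In the same fit 6.83% of 9562 tested genes had such a p, 2.91% in the lower direction. None of them passed over all genes, and the smallest adjusted p was 0.0815, for Cd74 and H2-Ab1, with log2 fold changes of -0.80 and -0.88 by edgeR on 5 libraries. The median over the 10 genes was -0.46 without GFP replicate 1 and -0.01 without GFP replicate 3. GFP replicate 1 has no label that sets it apart from the other GFP libraries. It was the lowest GFP library for each of these 5 genes, so leaving it out had to lower their log2 fold changes. The 5 genes also ran together across libraries and are not separate results. In each other fit with a library left out, 0 of the 10 genes had an unadjusted p under 0.05.

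**Figure D2:**
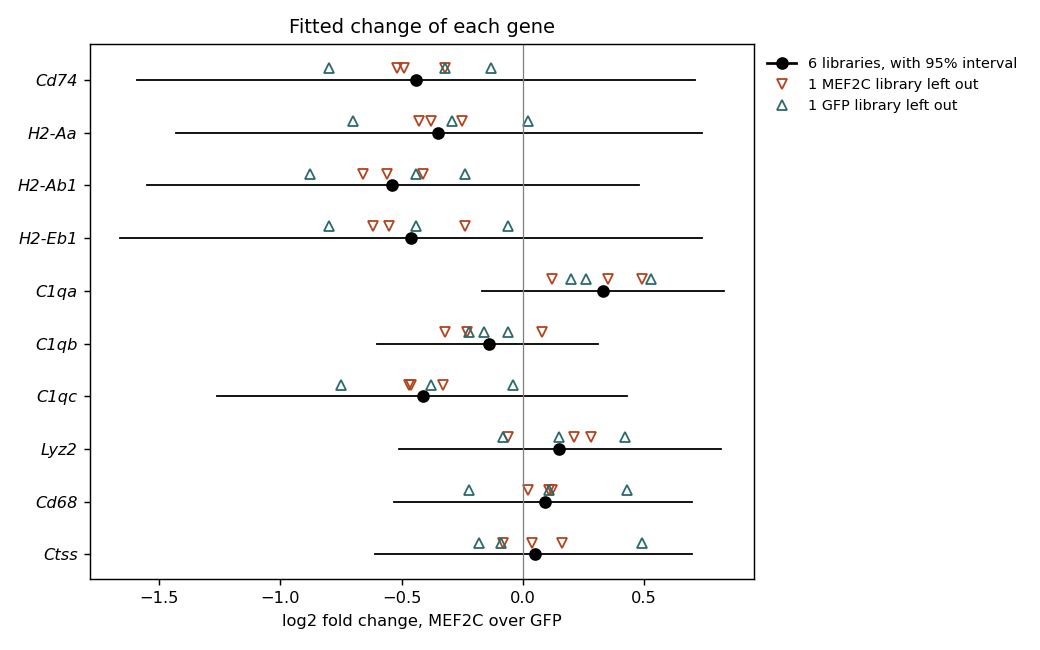
Fitted log2 fold change of each gene, MEF2C over GFP (horizontal axis), with its 95% interval from 6 libraries (black) and the estimates with 1 library left out (open triangles). Every interval crosses 0, and for the class II genes the estimate without GFP replicate 1 lies farthest to the left.

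Within each library the class II genes kept nearly fixed proportions, although their level among the GFP libraries differed by 3.01 times between the highest and lowest. H2-Aa had 0.614, 0.600 and 0.583 reads per Cd74 read in replicates 1, 2 and 3 labelled MEF2C, against 0.581, 0.519 and 0.588 in GFP replicates 1, 2 and 3. The highest of these 6 ratios was 1.18 times the lowest. For H2-Ab1 per Cd74 the highest was 1.25 times the lowest, and for H2-Eb1 per Cd74 it was 1.40 times. A ratio of reads within a library does not depend on how libraries were scaled. Relative to its mean over the 6 libraries, the average log2 CPM of the 4 genes was -0.77 in GFP replicate 1, 0.44 in GFP replicate 2 and 0.81 in GFP replicate 3. In replicates 1, 2 and 3 labelled MEF2C it was -0.49, -0.02 and 0.03.

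**Figure D3:**
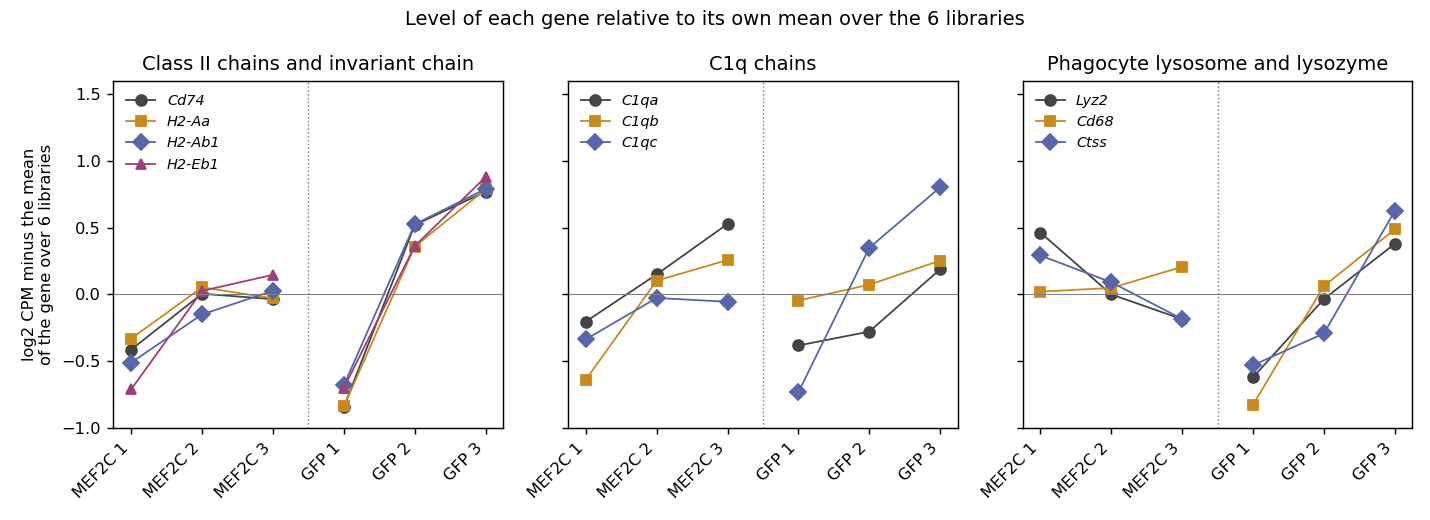
Log2 CPM of each gene minus its own mean over the 6 libraries (vertical axis), by library, for the class II group, the C1q chains and the other phagocyte genes; lines join libraries of a group only to guide the eye. The 4 class II genes lie close together in every library except replicate 1 labelled MEF2C, C1qc runs with them, and C1qa and C1qb do not.

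For 8 of the 10 genes the range among the GFP libraries was wide beside other genes of like abundance. For Cd74 the highest GFP library was 3.08 times the lowest, a wider range than that of 98.8% of the 827 tested genes whose mean count lay within 2-fold of its own. H2-Aa, H2-Ab1, H2-Eb1 and C1qc had GFP ranges of 3.11, 2.80, 3.02 and 2.96 times, wider than those of 98.2% to 98.9% of such genes. For Lyz2, Cd68 and Ctss the GFP range was wider than those of 97.9%, 96.1% and 96.3% of such genes, but for C1qa and C1qb than those of 72.4% and 52.6%. Among libraries labelled MEF2C the class II genes and C1qc spanned 1.25 to 1.83 times, and the H2-Eb1 range there was wider than those of 92.7% of such genes. Of the 10 genes, 6 had GFP replicate 1 as their lowest and GFP replicate 3 as their highest library, a pattern held by 2.59% of all tested genes. That pattern was chosen after the values were seen and carries no test.

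The 3 C1q genes sit side by side on chromosome 4 (minus strand) within 18675 bases, and their chains assemble into 1 protein, but their reads did not run in parallel. C1qa (ENSMUSG00000036887, 136895917 to 136898803) stood at 16.8, 21.7 and 28.3 CPM in replicates 1, 2 and 3 labelled MEF2C, against 14.8, 16.0 and 22.3 CPM in GFP replicates 1, 2 and 3. Its log2 fold change was 0.33 ± 0.23 with a 95% interval of -0.17 to 0.83 (edgeR adjusted p = 0.960), and replicate 3 labelled MEF2C was the highest library. C1qb (ENSMUSG00000036905, 136880129 to 136886187) stood at 44.6, 75.0 and 83.5 CPM in replicates 1, 2 and 3 labelled MEF2C, against 67.6, 73.4 and 83.2 CPM in GFP replicates 1, 2 and 3. Replicate 1 labelled MEF2C was low for C1qb and the other 5 libraries lay within a narrow band, with a log2 fold change of -0.14 ± 0.21 and a 95% interval of -0.60 to 0.31 (edgeR adjusted p = 0.993). Without that library the log2 fold change was 0.08. C1qc (ENSMUSG00000036896, 136889804 to 136893065) stood at 22.8, 28.4 and 27.8 CPM in replicates 1, 2 and 3 labelled MEF2C, against 17.2, 37.0 and 50.9 CPM in GFP replicates 1, 2 and 3. The order of the libraries was that of Cd74 and H2-Aa, and the log2 fold change was -0.41 ± 0.36 with a 95% interval of -1.26 to 0.43 (edgeR adjusted p = 0.993).

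Ratios set C1qc apart from its neighbours. There were 4.77, 5.13 and 5.09 Cd74 reads per C1qc read in replicates 1, 2 and 3 labelled MEF2C, against 4.69, 5.63 and 4.88 in GFP replicates 1, 2 and 3, a span of 1.20 times. Cd74 per C1qb spanned 2.50 times, between 1.70 and 2.44 in libraries labelled MEF2C and between 1.19 and 2.98 in GFP libraries. C1qc per C1qb spanned 2.40 times. C1qa per C1qb was 0.378, 0.289 and 0.339 in replicates 1, 2 and 3 labelled MEF2C, against 0.219, 0.217 and 0.268 in GFP replicates 1, 2 and 3. These groups did not overlap, at means of 0.335 ± 0.0446 in libraries labelled MEF2C and 0.235 ± 0.0284 in GFP libraries (SD, n = 3 each). Among the 13 ratios computed, groups were also separate for Lyz1 per Lyz2, and none of the 13 was tested. Of all tested genes, 11.1% had groups that did not overlap, and no such share was computed for ratios. C1qa had between 50 and 117 reads in a library, so its ratios carry counting error of their own.

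**Figure D4:**
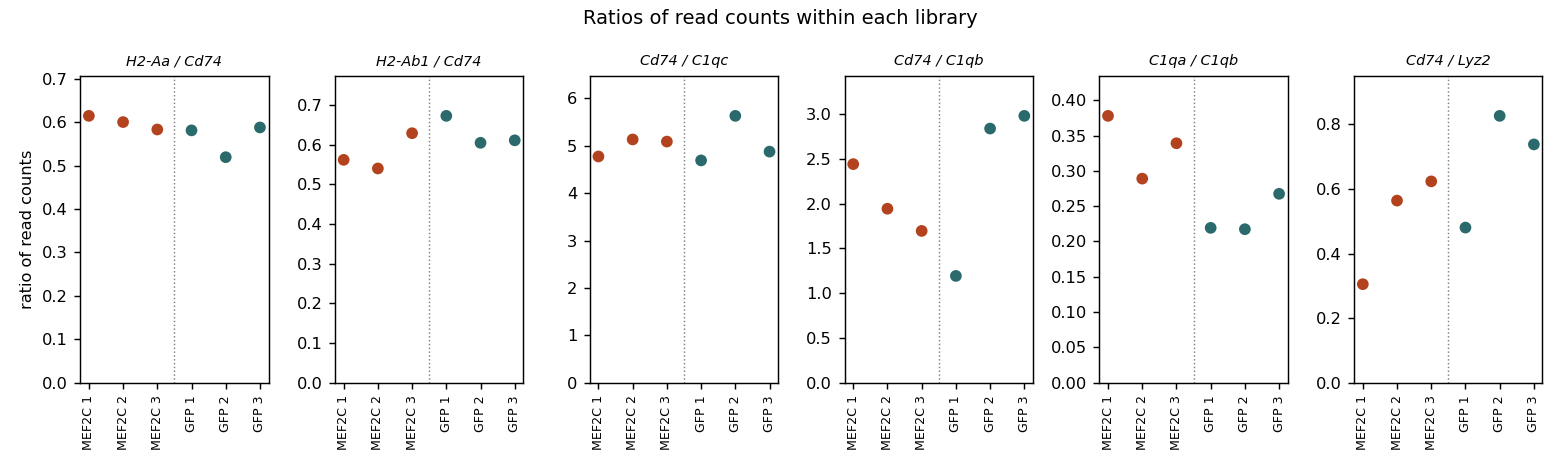
Ratios of read counts of pairs of genes within each library (vertical axes, from 0), libraries labelled MEF2C left and GFP libraries right of the dotted line. H2-Aa and H2-Ab1 per Cd74 and Cd74 per C1qc are nearly level, while Cd74 per C1qb runs between 1.19 and 2.98.

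For the phagocyte genes Lyz2, Cd68 and Ctss the fitted changes were smaller than their standard errors. Lyz2 encodes the lysozyme of macrophages, monocytes and granulocytes (ENSMUSG00000069516, chromosome 10, 117277331 to 117282321, minus strand). Its levels were 357, 258 and 227 CPM in replicates 1, 2 and 3 labelled MEF2C, against 168, 252 and 336 CPM in GFP replicates 1, 2 and 3. Unlike the class II genes, it was highest in replicate 1 labelled MEF2C, and its log2 fold change was 0.15 ± 0.28 with a 95% interval of -0.51 to 0.82 (edgeR adjusted p = 0.993). That library also held markers of neutrophils and their precursors: the 17-gene list summed to 1319 CPM there, to 30.9 and 24.4 CPM in replicates 2 and 3 labelled MEF2C, and to 20.7, 27.4 and 110.2 CPM in GFP replicates 1, 2 and 3. S100a8, a calcium-binding protein of neutrophils, reached 563 CPM in that library. Csf3r, the granulocyte growth factor receptor, had 0 reads in all 6 libraries. Without replicate 1 labelled MEF2C the log2 fold change of Lyz2 was -0.06, and the part of granulocytes in its level was not tested. Lyz1, a close copy of Lyz2, had 14.0, 19.2 and 14.8 CPM in replicates 1, 2 and 3 labelled MEF2C, against 14.5, 21.4 and 26.5 CPM in GFP replicates 1, 2 and 3, and reads may be divided between the copies with uncertainty.

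Cd68, the lysosomal glycoprotein widely used to stain macrophages (ENSMUSG00000018774, chromosome 11, 69664213 to 69666153, minus strand), stood at 12.7, 12.9 and 14.5 CPM in replicates 1, 2 and 3 labelled MEF2C, against 6.81, 13.1 and 17.8 CPM in GFP replicates 1, 2 and 3. The libraries labelled MEF2C nearly coincided, at 13.4 ± 0.988 CPM, while the GFP libraries averaged 12.6 ± 5.49 CPM (SD, n = 3 each). Its log2 fold change was 0.09 ± 0.29 with a 95% interval of -0.53 to 0.70 (edgeR adjusted p = 0.993). Only 23 to 67 reads per library lie behind these values. Ctss, the protease that removes the invariant chain (ENSMUSG00000038642, chromosome 3, 95526786 to 95556403, plus strand, overlapped by the pseudogene Hmgb1-ps5), stood at 31.9, 27.6 and 22.7 CPM in replicates 1, 2 and 3 labelled MEF2C, against 17.8, 21.1 and 40.3 CPM in GFP replicates 1, 2 and 3. GFP replicate 3 was again highest and GFP replicate 1 lowest, with a log2 fold change of 0.05 ± 0.29 and a 95% interval of -0.61 to 0.70 (edgeR adjusted p = 0.995). The directions of Lyz2, Cd68 and Ctss all turned to lower without GFP replicate 1, at -0.08, -0.22 and -0.18.

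The rest of the class II pathway did not pass the test either. Of 25 listed genes with a row, 14 were tested: 4 stood higher and 10 lower by log2 fold change in libraries labelled MEF2C, 0 were called by edgeR, and 1 had an unadjusted p under 0.05, with a median of -0.15. That gene was Ctsl, a cathepsin that cuts the invariant chain in the thymus, at 227, 217 and 183 CPM in replicates 1, 2 and 3 labelled MEF2C, against 267, 252 and 274 CPM in GFP replicates 1, 2 and 3 (log2 fold change -0.34 ± 0.13, edgeR adjusted p = 0.808). H2-DMa, the alpha chain of the molecule that loads peptides, stood at 7.25, 11.5 and 11.9 CPM in replicates 1, 2 and 3 labelled MEF2C, against 8.89, 12.1 and 21.2 CPM in GFP replicates 1, 2 and 3 (-0.47 ± 0.32, edgeR adjusted p = 0.951). Its order resembled that of the class II chains, with GFP replicate 3 highest. Rfxank, a subunit of the X-box complex, had a log2 fold change of 0.57 ± 0.29 and Cd83, a surface protein of mature dendritic cells, one of -0.51 ± 0.36 (edgeR adjusted p = 0.927 and 0.955). Ciita, the master regulator of class II transcription, was at 0.259 to 0.726 CPM in libraries labelled MEF2C and 0.319 to 0.889 CPM in GFP libraries, too few reads to test, and H2-Eb2 had 0 reads in every library.

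Genes with the profile most like the average of the 10 were sought by the root mean square difference of centred log2 CPM over the 6 libraries, among 6971 other genes with a mean of at least 20 counts. The 5 nearest were Ebag9 (0.087), H2-DMb1 (0.114), Pxdn (0.118), Angptl6 (0.129) and Adgre1 (0.134), where the median over those genes was 0.427 and a flat profile would give 0.372. H2-DMb1, the beta chain of the peptide-loading molecule, stood at 6.48, 10.5 and 9.44 CPM in replicates 1, 2 and 3 labelled MEF2C, against 5.33, 9.57 and 13.5 CPM in GFP replicates 1, 2 and 3. Adgre1, which encodes the macrophage antigen F4/80, stood at 5.70, 9.46 and 8.47 CPM in replicates 1, 2 and 3 labelled MEF2C, against 5.63, 8.93 and 12.985 CPM in GFP replicates 1, 2 and 3. The choice by likeness fixes the resemblance of these profiles.

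Other macrophage markers did not all share this spread. The 31-gene list of tissue macrophage markers summed to 720.0, 844 and 728 CPM in replicates 1, 2 and 3 labelled MEF2C, against 618, 744 and 822 CPM in GFP replicates 1, 2 and 3. Among the GFP libraries this sum had the same order as Cd74, lowest in replicate 1 and highest in replicate 3, over a narrower range. Of 26 tested, 19 stood higher and 7 lower in libraries labelled MEF2C, with a median log2 fold change of 0.10; edgeR called 0, and 2 had an unadjusted p under 0.05. Among these was Lyve1, a hyaluronan receptor of perivascular macrophages and lymphatic vessels, at 0.77 ± 0.24 (edgeR adjusted p = 0.677). Lyve1 stood at 32.9, 28.1 and 19.1 CPM in replicates 1, 2 and 3 labelled MEF2C, against 11.6, 18.8 and 16.7 CPM in GFP replicates 1, 2 and 3. Ms4a7, a membrane protein of macrophages, stood at 3.11, 4.73 and 4.11 CPM in replicates 1, 2 and 3 labelled MEF2C, against 3.85, 5.10 and 10.3 CPM in GFP replicates 1, 2 and 3 (-0.70 ± 0.38, edgeR adjusted p = 0.928), highest in GFP replicate 3 as the class II genes were. Csf1r, the receptor for the macrophage growth factor, named after its values were seen, stood at 16.8, 23.2 and 21.8 CPM in replicates 1, 2 and 3 labelled MEF2C, against 17.5, 18.5 and 18.3 CPM in GFP replicates 1, 2 and 3. Its GFP libraries were nearly level, unlike the sum of the list. Csf1r was picked for that and does not stand for the other markers.

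Complement genes beyond C1q did not pass the test. Of 21 tested, 13 stood higher and 8 lower in libraries labelled MEF2C, with a median log2 fold change of 0.09; edgeR called 0, and 2 had an unadjusted p under 0.05. Among these was C3, the component cleaved by all complement pathways, at 42.2, 55.0 and 43.1 CPM in replicates 1, 2 and 3 labelled MEF2C, against 24.6, 29.4 and 34.7 CPM in GFP replicates 1, 2 and 3 (log2 fold change 0.66 ± 0.18, edgeR adjusted p = 0.440). For C3, every library labelled MEF2C lay above every GFP library. Groups did not overlap for 4 of the 21 genes, where the share of all tested genes was 11.1%.

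Interferon gamma is a strong inducer of class II genes. In the list of its receptor and response genes 20 were tested, of which 4 stood higher and 16 lower in libraries labelled MEF2C, with a median log2 fold change of -0.43. By edgeR 0 were called, and 4, all lower, had an unadjusted p under 0.05, where 2.35% of all tested genes stood lower with such a p. Those were the interferon-induced GTPases Igtp, Irgm2, Gbp4 and Gbp2, at -0.97 ± 0.32, -0.60 ± 0.22, -1.01 ± 0.38 and -0.74 ± 0.31 (edgeR adjusted p = 0.749, 0.803, 0.808 and 0.856). Igtp stood at 9.33, 13.7 and 13.6 CPM in replicates 1, 2 and 3 labelled MEF2C, against 12.4, 29.0 and 30.2 CPM in GFP replicates 1, 2 and 3, so that GFP replicate 1 was again the lowest of the GFP libraries. Ifng itself had 0 CPM in 5 libraries and 0.530 CPM in GFP replicate 3. A link between these genes and the class II levels was not tested.

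Of the factors that draw in or sustain phagocytes, 12 were tested, 5 higher and 7 lower by log2 fold change, with a median of -0.07. Ccl21a, a chemokine of lymphatic vessels for dendritic cells and T cells, was the 1 gene called in any list beside Pvalb of the muscle fibre list, at 94.3, 81.4 and 77.2 CPM in replicates 1, 2 and 3 labelled MEF2C, against 24.6, 45.9 and 27.6 CPM in GFP replicates 1, 2 and 3 (log2 fold change 1.37 ± 0.21, edgeR adjusted p = 0.0428). Near-identical copies of this gene lie in the mouse genome, so its reads are uncertain. The call was kept in 1 of the 6 fits with a library left out (adjusted p = 0.00429 without GFP replicate 2) and lost in the others, with adjusted p between 0.0716 (without GFP replicate 1) and 0.443 (without GFP replicate 3). Across these 6 fits the log2 fold change was 1.19 to 1.69. The call was kept in 4 of the 10 alternatives with all libraries, and with replicate number as a block the adjusted p was 0.0588. Ccl8, a monocyte chemoattractant, stood at 4.92, 6.72 and 6.29 CPM in replicates 1, 2 and 3 labelled MEF2C, against 2.67, 5.42 and 61.0 CPM in GFP replicates 1, 2 and 3 (-1.97 ± 1.36, edgeR adjusted p = 0.976). The high value lay in GFP replicate 3 alone, the library with the most class II reads.

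Sums of the marker lists of B cells and dendritic cells, which also make class II molecules, were at most 27.3 CPM in any library. The immunoglobulin genes Ighm, Ighd and Igkc of the B cell list had no row by symbol, so the B cell sums leave them out. B cell markers, 9 of them in the table, summed to 26.4, 2.74 and 2.90 CPM in replicates 1, 2 and 3 labelled MEF2C, against 1.19, 4.15 and 9.01 CPM in GFP replicates 1, 2 and 3, and 0 could be tested. Cd79a and Cd79b, the signalling chains of the B cell receptor, named after their values were seen, were below 2 CPM except in replicate 1 labelled MEF2C, with 8.03 and 4.66 CPM. For the class II genes that library was the lowest of those labelled MEF2C, while among the GFP libraries the B cell sums had the same order as Cd74. The dendritic cell list summed to 14.8 to 27.3 CPM in libraries labelled MEF2C and 17.8 to 23.6 CPM in GFP libraries, with 3 of 12 tested and 0 called by edgeR or at an unadjusted p under 0.05 (median log2 fold change 0.25). Cd209a, a lectin of dendritic cells, stood at 4.66, 3.98 and 2.42 CPM in replicates 1, 2 and 3 labelled MEF2C, against 3.85, 8.93 and 6.10 CPM in GFP replicates 1, 2 and 3, with GFP replicates 2 and 3 highest (log2 fold change -0.76 ± 0.37, edgeR adjusted p = 0.900). Clec10a, a lectin of dendritic cells and macrophages, was at 4.15 to 12.3 CPM in libraries labelled MEF2C and 5.33 to 7.69 CPM in GFP libraries. Flt3, a growth factor receptor of dendritic cells, was at 0 in 3 libraries. The part of these cells in the class II levels was not tested.

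**Figure D5:**
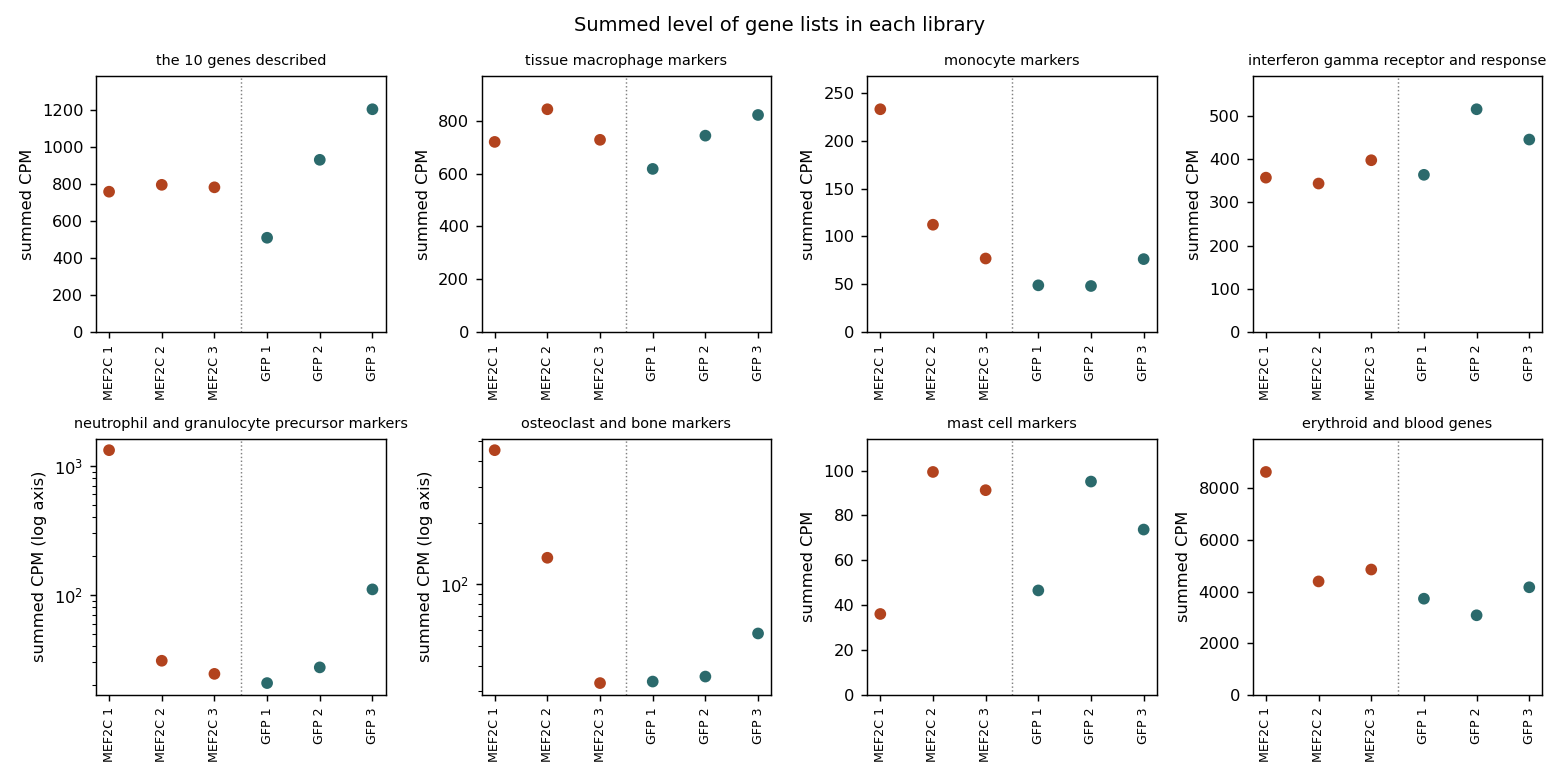
Summed normalised CPM of 8 gene lists in each library (vertical axes, 2 of them on a log scale as labelled), libraries labelled MEF2C left and GFP libraries right of the dotted line. The 10 genes described run between 508 and 1202 CPM, and the neutrophil list stands at 1319 CPM in replicate 1 labelled MEF2C.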

How the data were processed

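Gene read counts were analysed for 6 Nanopore PCR-cDNA libraries of skeletal muscle. Per the labels' protocols, 1 µg of total RNA and 14 PCR cycles were used, with no molecular identifiers described, so the limits given for a count of 0 cover counting error only. The deposited counts were whole numbers, and the deposited CPM, scaled by the authors to the whole library, served only as a check of the listed counts, which came to between 95.6% and 96.4% of their totals. Tools named in the submitters' processing notes are minimap2 and DESeq2 1.6.3, and the build is GRCm38. How genes were counted, and whether by strand, is not given in the sources used here. Of the rows, 30 named no gene, held 0 counts and were left out. Gene positions came from GENCODE vM21 (GRCm38), which held 22022 of the 22036 identifiers.

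Counts were fitted with edgeR 4.0.16 (R 4.3.3): filter by group, TMM, robust quasi-likelihood test without a covariate, Benjamini-Hochberg adjustment over all 9229 tested genes, calls at an adjusted p under 0.05. Standard errors came from the F statistic, 95% intervals from the test's degrees of freedom, and centred profiles from log2 CPM with a prior count of 2. The fit was tested on simulated counts with 200 changed genes. The 10 genes, the 15 other lists and the tests were chosen with earlier results of these data known. From each other list the called genes and up to 4 with the smallest p were eligible to be named; other genes are said to be chosen after their values were seen or mark a cell type. Some eligible genes are not reported here. No label says that equal replicate numbers in the titles pair libraries. No label says that replicates are separate animals, so the p-values rest on a spread between samples that may be technical. Pairs of libraries of 1 group differed beyond sampling noise (chi-square per degree of freedom of 5.65 to 11.7). A count of 0 allows up to 3 counts, 0.769 to 0.890 CPM. Alternatives were other scalings, filters and tests (DESeq2 1.42.0, limma-voom in limma 3.58.1), non-robust dispersion, a block on replicate number, a correction on transcript length (loess, span 0.3) and leaving out each library.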

Additional observations from a re-analysis of the deposited data

How the results depend on the processing

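The number of the 10 genes called was 0 under each of the 16 alternatives, leaving out each library included. Their median log2 fold change, -0.24, lay between -0.27 and -0.10 under the scalings, filters, tests and length correction, and between -0.46 and -0.01 when 1 library was left out. Library totals without TMM moved the median of all tested genes to 0.14 and that of the 10 genes to -0.10. None of the 100 changes of single genes recomputed under the 10 alternatives that kept all libraries turned its direction, and 8 of 60 did when 1 library was left out. The log2 fold change then ranged from -0.70 to 0.02 for H2-Aa, -0.32 to 0.08 for C1qb, -0.08 to 0.42 for Lyz2, -0.22 to 0.43 for Cd68 and -0.18 to 0.49 for Ctss. Calls over all genes, 7 by edgeR, were 4 without the 50 most abundant genes in the library totals, 35 with no low-count filter, 3 with the strict filter, 27 by the DESeq2 Wald test, 3 by limma-voom and 0 with non-robust dispersion, where 557 had an unadjusted p under 0.05. They ranged from 0 (without GFP replicate 3, where 386 had an unadjusted p under 0.05) to 22 (without MEF2C replicate 3); the cause was not tested. With the replicate block edgeR called 2 genes, none of them among the 10, whose median was then -0.20, and H2-Ab1 had an unadjusted p of 0.0450. The deviations of same-numbered libraries correlated at -0.235, 0.048 and -0.251 across genes, and none of the 6 libraries correlated best with its own number (the highest value was 0.320, MEF2C replicate 3 with GFP replicate 1). By the labels these libraries share only a number, and a batch shared by number was not tested. With the block the SE fell from 0.40 to 0.20 for H2-Ab1 and from 0.47 to 0.18 for H2-Eb1. It rose for Lyz2 and Ctss. For Cd68, with the fewest reads, DESeq2 gave no adjusted p.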

Other observations

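Mast cell markers were low in replicate 1 of each group. The 7-gene list summed to 36.0, 99.4 and 91.2 CPM in replicates 1, 2 and 3 labelled MEF2C, against 46.5, 95.1 and 73.7 CPM in GFP replicates 1, 2 and 3. Cma1, a mast cell chymase, stood at 10.9, 32.6 and 31.5 CPM in replicates 1, 2 and 3 labelled MEF2C, against 12.7, 31.6 and 26.0 CPM in GFP replicates 1, 2 and 3. Of its 4 tested genes edgeR called 0, with 0 at an unadjusted p under 0.05 and a median log2 fold change of 0.07. The same libraries were the lowest pair for Cd74, H2-Aa, H2-Ab1, H2-Eb1 and C1qc.

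Monocyte markers summed to 233, 112 and 77.0 CPM in replicates 1, 2 and 3 labelled MEF2C, against 48.9, 48.2 and 76.3 CPM in GFP replicates 1, 2 and 3. Most of the list's gap between groups came from Hp, haptoglobin, which fat cells and granulocytes also make (log2 fold change 1.57 ± 0.32, edgeR adjusted p = 0.309), and Fn1, fibronectin (0.94 ± 0.52, edgeR adjusted p = 0.930). Of 4 tested genes edgeR called 0 and 1 had an unadjusted p under 0.05, with a median of 0.75. Ccr2, the receptor that defines inflammatory monocytes, stood at 3.37, 1.25 and 6.05 CPM in replicates 1, 2 and 3 labelled MEF2C, against 2.37, 4.47 and 4.24 CPM in GFP replicates 1, 2 and 3.

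Lysosomal genes common to most cells had a median log2 fold change of 0.06 over 24 tested, with 14 higher and 10 lower, 0 called by edgeR and 2 at an unadjusted p under 0.05. Among these was Gaa, acid alpha-glucosidase, at -0.35 ± 0.13 (edgeR adjusted p = 0.808). Osteoclast and bone markers summed to 452, 135 and 32.9 CPM in replicates 1, 2 and 3 labelled MEF2C, against 33.5, 35.4 and 57.5 CPM in GFP replicates 1, 2 and 3, with 4 tested, 0 called by edgeR, 0 at an unadjusted p under 0.05 and a median of 2.94. T and NK cell markers summed to 4.60 to 11.2 CPM in libraries labelled MEF2C and 5.04 to 19.9 CPM in GFP libraries, with 1 tested gene, Thy1 (log2 fold change -0.22 ± 0.34, edgeR adjusted p = 0.993). Of the neutrophil list 3 genes were tested and edgeR called 0, with 0 at an unadjusted p under 0.05 and a median of 2.85. The erythroid list had 5 tested genes, all higher in libraries labelled MEF2C, 0 called by edgeR, 2 at an unadjusted p under 0.05 and a median of 0.66. In the muscle fibre list 12 were tested and 1, Pvalb, was called lower (log2 fold change -0.88 ± 0.12, edgeR adjusted p = 0.0162), with a median of -0.09. The Pvalb call was kept in 3 of the 6 fits with a library left out, lost without MEF2C replicate 2 (adjusted p = 0.169), GFP replicate 2 (0.129) or GFP replicate 3 (0.140), and lost with the replicate block (0.0950) and with non-robust dispersion (0.0780). Its log2 fold change was -0.94 to -0.78 in the fits with a library left out.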
